A study of Drosophila melanogaster with 2 samples.

Results

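The pericentric heterochromatin of arm 2L was taken as the centromeric 1 Mb of the assembled arm, from position 22011545 to 23011544 on chromosome arm 2L of BDGP Release 5. Its members were the bins of 300 bp that lay wholly inside and held at least 1 H3K9me2 tag in either library, 2923 of 3333 bins, out of 446655 bins with a tag in the whole series. No value of one genotype against the other was used to choose them. The ChIP-seq data comprised 1 library of EHMTDD1 larvae, labelled EHMT-KO, and 1 library of EHMT+ larvae, labelled wild type. EHMTDD1 is 1 deletion line that lacks the translational start site of EHMT, made by imperfect excision of a P-element, and EHMT+ is the line of the same background in which the P-element was excised precisely. Both groups were whole larvae of the third instar raised on the same medium at 25 degrees, so that all larval tissues contribute to each value, and how many larvae were pooled, and of which sex, is not given in the sources used here. With 1 library per genotype, the spread between replicates is unknown, and no p-value was computed.

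Heterochromatin is the condensed, repeat-rich chromatin that surrounds the centromeres. Its histone H3 is methylated on lysine 9 by enzymes that include Su(var)3-9 and Setdb1 (eggless), and the methylated tail is bound by HP1a, encoded by Su(var)205. EHMT, the fly G9a, also methylates this residue and is named for its activity in euchromatin. The heterochromatin of 2L is gene-poor but contains genes of known function, among them light and concertina, and light is known to require a heterochromatic surrounding for its normal expression. The position of these genes in Release 5 was not used here, so no bin below is assigned to a gene, and no sequence is shown because no genome of this build was used.

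Each library held 7043913 tags, because the authors equalized the totals, and no 2 tags on 2L shared a start and a strand. The values below are tags extended to 300 bp. Densities and totals count a tag once, at its midpoint, whereas counts per bin include every tag that overlaps the bin. Differences between the libraries are given as the ratio of EHMTDD1 to EHMT+, so that a ratio below 1 or a negative log2 ratio means fewer tags in EHMTDD1. Intervals are 95% intervals, exact binomial for shares and exact conditional binomial for ratios. They cover counting error only, and those for shares of bins are too narrow, since neighbouring bins share tags. Without an input library, copies of a sequence and the ability to map it uniquely cannot be told apart from H3K9me2 in a density, and which of these sets a given level was not tested.

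The first question was how H3K9me2 rises toward the centromere. The region held 91440 tags in EHMTDD1 and 98586 tags in EHMT+, that is 1.30% and 1.40% of each library. Over bins with a tag, the density in EHMTDD1 was 104 tags per kb in the region and 55.7 tags per kb in the preceding 1 Mb of the arm (21011545 to 22011544), 1.87 times as high (1.85 to 1.89). In EHMT+ the densities were 112 and 70.1 tags per kb, 1.60 times as high (1.59 to 1.62). Both libraries therefore had more tags per kb near the centromere, and by this measure the contrast with the preceding 1 Mb was larger in EHMTDD1. With the median tags per bin in place of the density, the order turned round, at 1.38 times in EHMTDD1 and 1.61 times in EHMT+.

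The larger contrast of densities in EHMTDD1 came with fewer tags in the preceding 1 Mb. That stretch had 46346 tags in EHMTDD1 and 58330 tags in EHMT+, a ratio of 0.795 (0.785 to 0.804). In the pericentric 1 Mb the ratio was 0.928 (0.919 to 0.936), and over the rest of 2L it was 0.989 (0.987 to 0.992). Against the rest of 2L, the pericentric density was 2.09 times as high (2.08 to 2.11) in EHMTDD1 and 2.23 times as high (2.22 to 2.25) in EHMT+. The preceding 1 Mb was itself above the rest of the arm, 1.12 times (1.11 to 1.13) in EHMTDD1 and 1.39 times (1.38 to 1.40) in EHMT+. The order of the genotypes in this contrast thus depends both on the statistic and on which part of the arm the region is set against.

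**Figure D1:**
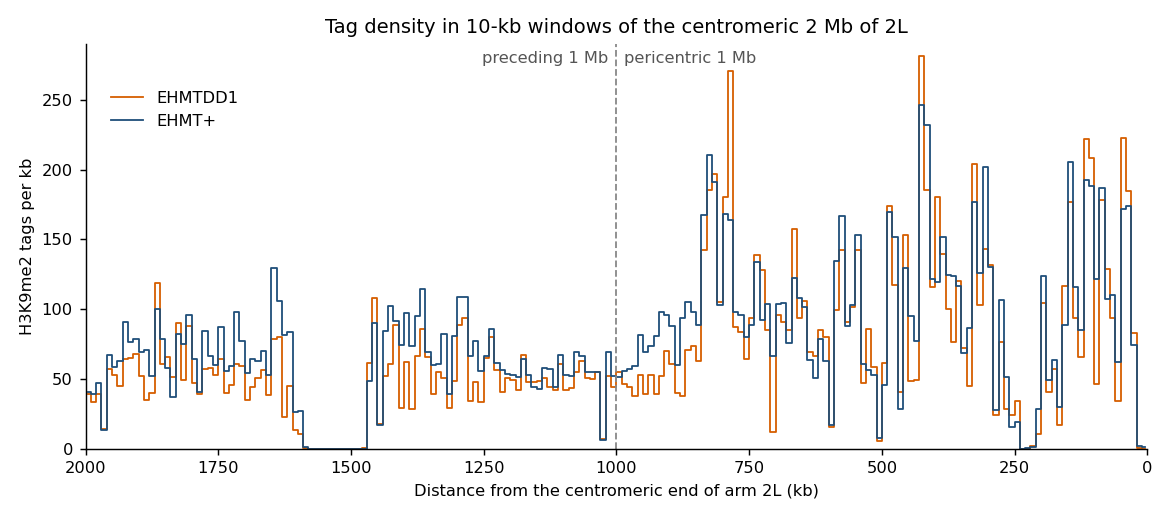
H3K9me2 tags per kb (y axis) in windows of 10 kb along the centromeric 2 Mb of 2L, by distance from the centromeric end in kb (x axis, centromere at the right), for EHMTDD1 (orange) and EHMT+ (blue), 1 library each; the dashed line is the outer border of the pericentric 1 Mb. Density reaches 281 tags per kb in EHMTDD1 and 246 tags per kb in EHMT+ within the pericentric 1 Mb, against at most 119 and 130 tags per kb in the preceding 1 Mb, and the stretches near 0 hold few or no uniquely mapped tags in either library.

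A single dividing point between outer and inner levels fell at different places in the 2 libraries. With 1 library per genotype, the spread of such a point is unknown. When the log2 tag counts of 10-kb windows were divided at the single point that best separates a low outer level from a high inner level, the point lay 870 kb from the centromeric end in EHMTDD1 and 960 kb in EHMT+. The median density on the outer side was 50.6 tags per kb in EHMTDD1 and 63.5 tags per kb in EHMT+, and on the inner side 93.6 and 98.3 tags per kb. In the 90 kb between these points (22051545 to 22141544), EHMTDD1 had 4447 tags and EHMT+ had 7404 tags, a ratio of 0.601 (0.579 to 0.623). This segment was picked by the difference between the libraries, and its values are a description only. All 9 of its 10-kb windows had fewer tags in EHMTDD1, with 377 to 701 tags per window (median 523) in EHMTDD1 and 598 to 977 tags (median 817) in EHMT+.

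The outermost 100 kb of the region had a low density. Over the 333 bins with a tag of that window the density was 48.9 tags per kb in EHMTDD1, close to the 49.8 tags per kb of the rest of 2L in the same library. In EHMT+ it was 72.2 tags per kb, against 50.3 tags per kb in the rest of 2L and 70.1 tags per kb in the preceding 1 Mb. By density, then, the label of heterochromatin did not set this window apart from the preceding 1 Mb in either library. The next 2 windows outward had 50.4 and 50.3 tags per kb in EHMTDD1, slightly above the outermost pericentric window, and 58.1 and 53.4 tags per kb in EHMT+, below it.

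Further in, the level was high but broken. The highest of the 100-kb windows lay 400 to 500 kb from the centromeric end, with 136 tags per kb in EHMTDD1 and 144 tags per kb in EHMT+. The lowest inner window lay at 200 to 300 kb, with 54.8 tags per kb in EHMTDD1 and 62.5 tags per kb in EHMT+, and only 200 of its 332 bins had a tag. At the end of the assembly, from 0 to 100 kb, the density was 124 tags per kb in EHMTDD1 and 129 tags per kb in EHMT+. High and low windows were thus much the same in both libraries. The log2 counts of the 2 libraries correlated with a Pearson r of 0.87 (Spearman 0.88) over the 95 pericentric windows of 10 kb whose summed count reached 100 tags. This is a description over windows, which are not replicates. The counts were per window and not densities. The windows held from 10 to 33 bins with a tag, which enters the correlation.

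Part of the region had no uniquely mapped tag in either library, and the reason was not tested. Neither library had a tag in 410 bins (12.3%), against 16.7% of bins in the preceding 1 Mb and 3.56% in the rest of 2L. Most untagged bins of the preceding 1 Mb lay in 1 stretch. There, 176 of 332 bins had a tag at 1400 to 1500 kb and 28 of 333 at 1500 to 1600 kb. The untagged pericentric bins formed 73 runs. The longest covered 65 bins (19500 bp) from 22766401 to 22785900, about 235 kb from the centromeric end, and the next covered 22 bins from 22502401 to 22509000. The last 20 kb of the arm held 4 tags in EHMTDD1 and 31 tags in EHMT+, so nothing is said here about levels there.

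Within the bins with a tag, tags were spread much less evenly in EHMTDD1. The bins of EHMTDD1 ranged from a 5th percentile of 1 tag over a median of 40 tags to a 95th percentile of 209 tags, with a highest bin of 442 tags. In EHMT+ the 5th percentile was 4 tags, the median 61 tags and the 95th percentile 149 tags, with a highest bin of 235 tags. EHMTDD1 thus had more bins at both extremes on a similar total. The 10% of bins with most tags held 36.9% of the pericentric tags in EHMTDD1 and 23.6% in EHMT+. The coefficient of variation over bins was 1.05 in EHMTDD1 and 0.662 in EHMT+.

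The same direction was found outside the region, with a smaller gap. In the preceding 1 Mb the richest 10% of bins held 29.9% of tags in EHMTDD1 and 22.2% in EHMT+, and in the rest of 2L 25.3% and 20.8%. EHMTDD1 had no tag in 112 pericentric bins (3.83%) in which EHMT+ had at least 1. EHMT+ had no tag in 16 bins (0.547%) in which EHMTDD1 had at least 1. In EHMTDD1 and EHMT+, these shares were 1.66% and 0.216% in the preceding 1 Mb, and 0.650% and 0.0992% in the rest of 2L. The pericentric share was thus the largest in both libraries. What makes the EHMTDD1 library less even was not tested, and base composition was not analysed here.

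**Figure D2:**
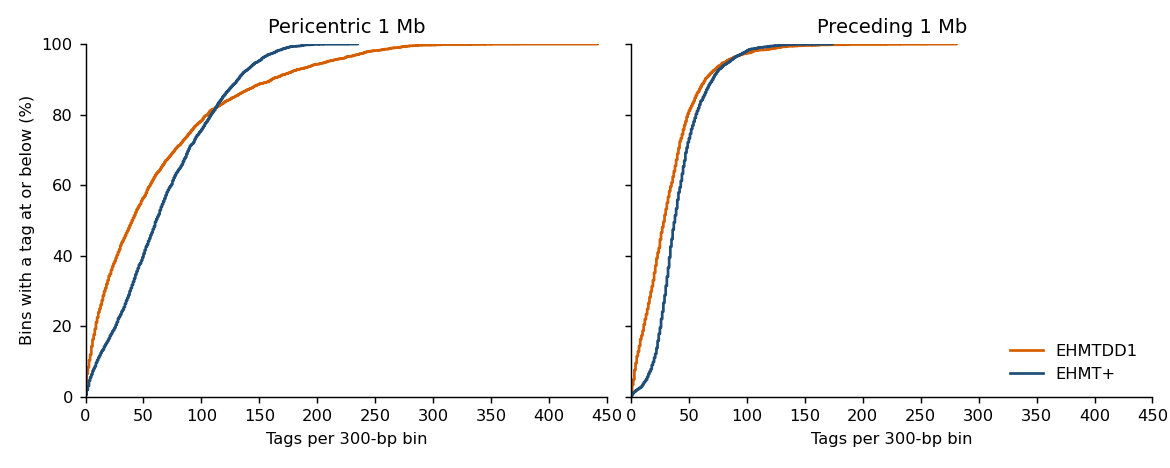
Share of bins with a tag (y axis, percent) at or below a given number of tags per 300-bp bin (x axis), in the pericentric 1 Mb (left) and the preceding 1 Mb (right), for EHMTDD1 (orange) and EHMT+ (blue). In the pericentric 1 Mb the curves cross, since EHMTDD1 has the lower median (40 against 61 tags) and the higher 95th percentile (209 against 149 tags); in the preceding 1 Mb the medians are 29 tags in EHMTDD1 and 38 tags in EHMT+.

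The second question was where EHMTDD1 loses or keeps tags. For each bin the log2 ratio was taken after adding 1 to both counts. Limits were set at 2 SD around the mean of the 384458 bins of euchromatin, that is of the 5 arms without their centromeric 1 Mb and of chromosome 4. A bin below a log2 ratio of -1.90 (3.74-fold lower) is called lost, one above 1.56 (2.96-fold higher) gained, and one within 0.5 of 0 kept. Of the 2923 pericentric bins, 496 were lost, or 17.0% (15.6 to 18.4%). The background was 5.37% of the 370737 euchromatic bins that had a tag. Gained bins numbered 24, or 0.821% (0.527 to 1.22%), against a background of 0.243%. Kept bins numbered 1078, or 36.9% (35.1 to 38.7%), against a background of 57.0%. The pericentric region therefore held a larger share of lost bins and a smaller share of kept bins than the background. Its share of gained bins was also larger, but when each tag was counted once, at its midpoint, 10 bins (0.355%) were gained against a background of 0.327%. The median log2 ratio over its bins was -0.31, with an SD of 1.28, against a median of 0.00 and an SD of 0.87 in the rest of 2L.

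Most of the remaining bins lay on the lower side. Between the loss limit and the kept range were 795 bins (27.2%), and between the kept range and the gain limit 530 bins (18.1%). The same shares were 20.5% and 17.2% in the rest of 2L, and 30.0% and 9.12% in the preceding 1 Mb. The upper share was thus near that of the rest of 2L, and the preceding 1 Mb leaned further to the lower side. In the lost bins the median was 6 tags in EHMTDD1 and 46 tags in EHMT+, and 67 of them had no tag in EHMTDD1. In the gained bins the median was 14 tags in EHMTDD1 and 3.5 tags in EHMT+, and 22 of the 24 had fewer than 10 tags in EHMT+. EHMT+ is by definition the higher library in lost bins and the lower one in gained bins, so its counts alone do not compare the classes. In the higher library the median was 46 tags in lost bins and 14 tags in gained bins. Of the 24 gained bins, 9 had at least 20 tags in EHMTDD1. Within 600 bp of an untagged bin lay 255 of the 2923 bins, among them 44 lost bins (17.3%) and 12 of the 24 gained bins. Away from untagged bins, 452 of 2668 bins (16.9%) were lost and 12 gained, so that few of the losses and many of the gains lay beside untagged sequence.

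The preceding 1 Mb resembled the pericentric 1 Mb in its losses more than in its level. There 381 of 2774 bins were lost, or 13.7% (12.5 to 15.1%), 10 were gained and 1299 (46.8%) were kept, with a median log2 ratio of -0.35. In the rest of 2L the lost share was 5.29% (5.13 to 5.46%). The pericentric lost share was 1.24 times that of the preceding 1 Mb and from 1.11 to 1.36 times over 12 ways of counting.

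Along the arm the losses came in blocks. In the 200 kb just outside the region the lost share was 6.58% and 6.02% in successive 100-kb windows, near the background. Farther out, from 1200 to 1700 kb, it was 18.3%, 19.5%, 18.2%, 28.6% and 25.2%, where the 28.6% rests on 28 bins with a tag. Inside the region the share was 14.7% in the outermost window and 19.9% in the next, and reached 23.9% at 700 to 800 kb and 24.0% at 200 to 300 kb. The lowest share inside was 10.7%, at 400 to 500 kb, the window with the highest density, where 47.5% of bins were kept. Each of the 10 pericentric windows thus had more lost bins than the background and fewer kept bins.

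**Figure D3:**
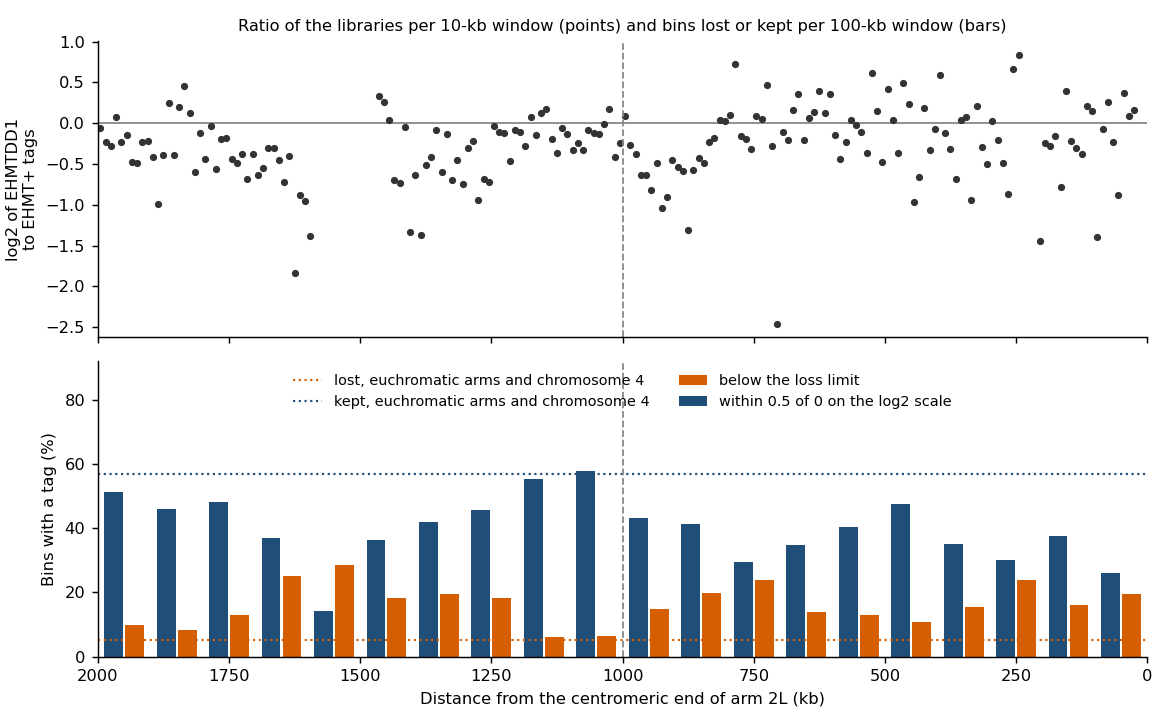
Upper part, log2 ratio of EHMTDD1 to EHMT+ tags in 10-kb windows whose summed count reached 100 tags; lower part, percent of bins with a tag that were lost (orange) or kept (blue) in each 100-kb window, with dotted lines at the background of 5.37% and 57.0%; the x axis is the distance from the centromeric end of 2L in kb. Lost shares run from 10.7% to 24.0% inside the pericentric 1 Mb, are 6.58% and 6.02% just outside it and are higher again farther out.

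Total tags and lost bins did not move together. The window at 700 to 800 kb had 11451 tags in EHMTDD1 and 10904 tags in EHMT+, a ratio of 1.05 (1.02 to 1.08), although 23.9% of its bins were lost. The window at 600 to 700 kb also had slightly more tags in EHMTDD1, with 9299 and 8718 tags and a ratio of 1.07 (1.04 to 1.10). The lowest ratios were those of the outer windows, 0.678 (0.654 to 0.703) at 900 to 1000 kb and 0.808 (0.787 to 0.830) at 800 to 900 kb. Inward of 800 kb the ratios ran from 0.872 to 1.07. In the windows with a ratio above 1, bins with more tags in EHMTDD1 outweighed the lost bins.

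Whether a bin kept its tags went with its level in EHMT+. Among pericentric bins with 20 to 39 EHMT+ tags, 25.1% (21.1 to 29.4%) were lost, and the medians were 19 tags in EHMTDD1 and 30 tags in EHMT+. Among bins with 80 to 119 EHMT+ tags, 11.8% (9.37 to 14.6%) were lost. Among bins with 120 to 159 EHMT+ tags, 6.07% (3.80 to 9.13%) were lost, and EHMTDD1 had a median of 148 tags against 135 tags in EHMT+. In the 83 bins with at least 160 EHMT+ tags, 2 bins were lost and the medians were 236 tags in EHMTDD1 and 170 tags in EHMT+. At 120 to 159 EHMT+ tags and at 160 or more, the median log2 ratio was thus positive, at 0.13 and 0.43. Single bins varied, since 46.5% and 53.0% of the bins at these levels were kept. Bins of 10 to 59 EHMT+ tags were lost most often. Below 10 EHMT+ tags, where few counts can pass the limit, 17.4% were lost. Because EHMT+ counts define the levels and also enter the ratio, this is a description and not a test.

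At the same EHMT+ level the lost share of pericentric bins was above that of the rest of 2L. At 20 to 39 EHMT+ tags the lost share was 12.8% (11.0 to 14.9%) in the preceding 1 Mb and 4.98% (4.78 to 5.20%) in the rest of 2L. At 40 to 59 tags it was 23.7% (20.1 to 27.6%) in the pericentric 1 Mb, 14.3% (12.0 to 16.9%) in the preceding 1 Mb and 3.87% (3.51 to 4.26%) in the rest of 2L. At 10 to 19 tags the pericentric share of 25.1% and the share of 24.1% in the preceding 1 Mb had overlapping intervals. From 60 tags upward the intervals of the pericentric and the preceding 1 Mb overlapped as well, with 16.3% and 12.2% at 60 to 79 tags. The pericentric share was above that of the rest of 2L at each level up to 119 tags. At 120 to 159 tags it was 6.07%, and 0% of 58 bins in the rest of 2L, with overlapping intervals. It was above that of the preceding 1 Mb at each level up to 119 tags as well, most clearly from 20 to 59 tags. Because the intervals are too narrow, whether they overlap does not decide where the shares differ. When bins were matched on the summed tags of both libraries instead, the order differed at low counts. At 1 to 19 summed tags 27.4% of pericentric bins were lost, against 34.3% in the preceding 1 Mb and 33.7% in the rest of 2L. At 20 to 39 summed tags the shares were 36.5%, 40.8% and 15.2% in the same order, and at 40 to 79 summed tags 32.9%, 13.1% and 1.95%.

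**Figure D4:**
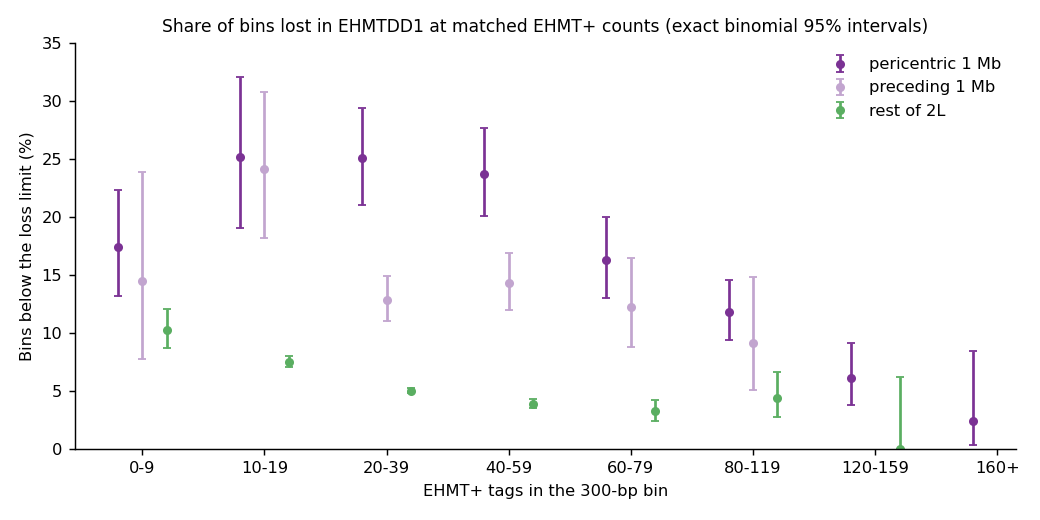
Percent of bins below the loss limit (y axis) by the number of EHMT+ tags in the bin (x axis) for the pericentric 1 Mb, the preceding 1 Mb and the rest of 2L; points are shares and bars exact binomial 95% intervals, and levels with fewer than 20 bins are left out. The pericentric share is 25.1% at 20 to 39 tags and 2.41% at 160 tags or more, and lies above the rest of 2L at each level up to 119 tags.

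On the scale of 10 kb, both losses and gains were found. Of the 95 pericentric windows with at least 100 tags, 19 were below a log2 ratio of -0.5, against a background of 5.34% of windows, and 5 (5.26%) were above 0.5, against 1.06%. In the preceding 1 Mb, 23 of 88 windows were below -0.5 and 0 above 0.5. The pericentric windows held from 56 tags over a median of 854 tags to 2811 tags in EHMTDD1, and from 78 tags over a median of 977 tags to 2461 tags in EHMT+.

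Among windows with at least 100 tags, the one with the lowest ratio lay 700 to 710 kb from the centromeric end (22301545 to 22311544), with 120 tags in EHMTDD1 and 663 tags in EHMT+, a ratio of 0.181 (0.148 to 0.220). Of its 30 bins with a tag, 25 were lost. The next lowest window, at 200 to 210 kb (22801545 to 22811544), had 103 tags in EHMTDD1 and 282 tags in EHMT+, a ratio of 0.365 (0.289 to 0.459). Near the end of the arm, at 90 to 100 kb (22911545 to 22921544), EHMTDD1 had 463 tags and EHMT+ 1218 tags, a ratio of 0.380 (0.341 to 0.423). The other 2 of the 5 lowest windows lay in the outer part, at 870 to 880 kb with 377 and 938 tags and at 920 to 930 kb with 392 and 805 tags in EHMTDD1 and EHMT+. Low windows therefore occurred both near the outer border and deep inside the region, but they were more frequent near the border. Of the 95 windows, 19 were below a log2 ratio of -0.5. Inward of 870 kb lay 82 of the 95 windows but only 11 of these 19.

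The windows with the highest ratios were of 2 kinds. At 780 to 790 kb (22221545 to 22231544), EHMTDD1 had 2709 tags and EHMT+ 1637 tags, a ratio of 1.65 (1.56 to 1.76), with up to 287 tags per bin in EHMTDD1 and up to 187 in EHMT+. At 390 to 400 kb (22611545 to 22621544), the counts were 1805 tags in EHMTDD1 and 1194 tags in EHMT+, a ratio of 1.51 (1.40 to 1.63). These windows were rich in tags in both libraries. By contrast, the windows at 240 to 250 kb and at 250 to 260 kb were sparse, with 342 and 191 tags in the first and 242 and 153 tags in the second for EHMTDD1 and EHMT+, and 16 and 19 bins with a tag. The remaining one, at 520 to 530 kb, had 860 tags in EHMTDD1 and 562 tags in EHMT+.

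Windows highest in EHMT+ kept most of their tags. The highest, at 420 to 430 kb (22581545 to 22591544), had 2811 tags in EHMTDD1 and 2461 tags in EHMT+, and 2 of its 33 bins were lost. Its neighbour at 410 to 420 kb had 1855 tags in EHMTDD1 and 2320 tags in EHMT+, with 5 of 32 bins lost. The other windows among the 5 highest had ratios of 0.881 (820 to 830 kb), 0.861 (140 to 150 kb) and 0.709 (300 to 310 kb). All 5 lay within a log2 ratio of 0.5 of 0, the last just inside it at -0.50. So did 71 of all 95 pericentric windows with at least 100 tags, so this does not set the 5 apart.

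Neighbouring lost bins joined into 231 runs that covered 149 kb in all. Single bins made up 120 of these runs, and 35 were 4 bins or longer. In runs of 2 or more bins lay 75.8% of the lost bins, against 75.6% in the preceding 1 Mb and 62.9% in the rest of 2L. The longest run covered 12 bins from 22307401 to 22311000, with 23 tags in EHMTDD1 and 300 tags in EHMT+, a ratio of 0.0767 (0.0479 to 0.117). In genomic order its bins held 17, 4, 2, 3, 5, 5, 6, 5, 2, 0, 2 and 8 tags in EHMTDD1, against 72, 51, 59, 58, 46, 43, 55, 56, 35, 31, 50 and 58 tags in EHMT+. Each bin of the run was chosen as lost, so the gap between the libraries is a description only. EHMT+ was within its pericentric interquartile range of 33 to 98.5 tags in all but 1 bin, mostly below its median of 61 tags.

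Of the 5 longest runs, 3 lay close together between 22295101 and 22311000. The second in length, 9 bins from 22295101 to 22297800, had 21 tags in EHMTDD1 and 220 tags in EHMT+, a ratio of 0.0955 (0.0579 to 0.150). The third, also of 9 bins (22303801 to 22306500), held 12 tags in EHMTDD1 and 141 tags in EHMT+, for a ratio of 0.0851 (0.0430 to 0.153). On both sides of the second run the libraries were close, with 131 tags in EHMTDD1 and 175 tags in EHMT+ in the 1500 bp before it and 145 tags each in the 1500 bp after it. Its edges were thus sharp, whereas the bins around the third run and the longest run were also low in EHMTDD1.

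The 2 remaining long runs lay elsewhere in the region. From 22566001 to 22568400, 8 bins held 37 tags in EHMTDD1 and 340 tags in EHMT+, a ratio of 0.109 (0.0753 to 0.153). Its bins held 24, 16, 16, 12, 2, 5, 7 and 5 tags in EHMTDD1, against 116, 121, 122, 98, 72, 66, 55 and 39 tags in EHMT+, so that 3 of its bins were above the 75th percentile of EHMT+ and were lost all the same. From 22804501 to 22806900, 8 bins held 14 tags in EHMTDD1 and 90 tags in EHMT+, a ratio of 0.156 (0.0818 to 0.275).

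**Figure D5:**
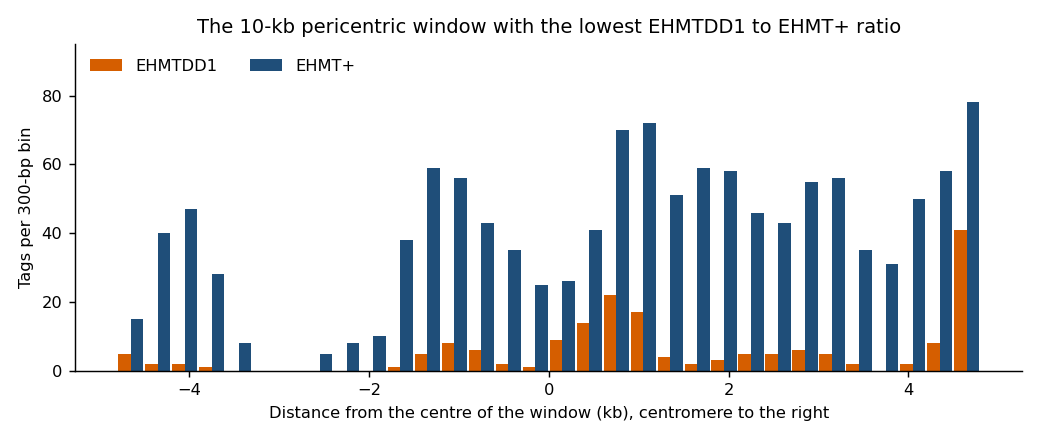
Tags per 300-bp bin (y axis) in EHMTDD1 (orange) and EHMT+ (blue) along the 10-kb window at 700 to 710 kb from the centromeric end, by distance from the centre of the window in kb (x axis). EHMTDD1 has 0 to 41 tags and EHMT+ 0 to 78 tags per bin, and 25 of the 30 bins with a tag are below the loss limit.

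Gained bins formed 18 runs, of which 15 were single bins. The longest, 5 bins from 22411501 to 22413000, had 39 tags in EHMTDD1 and 8 tags in EHMT+, a ratio of 4.88 (2.25 to 12.1). Its bins held 30, 30, 15, 6 and 4 tags in EHMTDD1 and 6, 8, 4, 0 and 0 tags in EHMT+. A run of 2 bins from 22761301 to 22761900 had 40 tags in EHMTDD1 and 7 tags in EHMT+, a ratio of 5.71 (2.53 to 15.1), and one of 2 bins from 22661701 to 22662300 had 12 and 3 tags. These 12 and 3 tags all lay on the minus strand. In the higher library, the gained runs named here held 12 to 40 tags, whereas the 5 longest lost runs held 90 to 340 tags.

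Some stretches had reads in EHMT+ and none in EHMTDD1. The 36-bp reads were placed without extension, and gaps of 300 bp or more in 1 library were sought where the other had 12 reads or more. EHMTDD1 had 111 such gaps, with a median length of 413 bp and 82.5 kb in all, of which 13742 bp lay in 1 gap at the centromeric end. EHMT+ had 0. In the preceding 1 Mb EHMTDD1 had 126 gaps that covered 79.0 kb, and EHMT+ again had 0. Such gaps were thus found in EHMTDD1 only, and no less often outside the region than inside it.

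The gap with most EHMT+ reads was 1465 bp long (22113259 to 22114723), with 0 reads in EHMTDD1 and 74 reads in EHMT+. A gap of 646 bp from 22961109 to 22961754, about 50 kb from the end of the arm, had 62 EHMT+ reads, and one of 862 bp from 22310042 to 22310903, inside the longest run of lost bins, had 61 EHMT+ reads. The other 2 of the 5 had 54 EHMT+ reads each, in 467 bp from 22354807 to 22355273 and in 405 bp from 22606069 to 22606473. These gaps were chosen by the difference itself, so they have no test, and no fold is given.

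Neighbouring bins had like ratios over short distances. The log2 ratios of pericentric bins 600 bp apart, which share no tag, had a Pearson r of 0.37 over 2798 pairs, and r was 0.20 at 1200 bp, 0.12 at 2400 bp and 0.05 at 4800 bp. In the preceding 1 Mb r was 0.28 at 600 bp and still 0.13 at 4800 bp and 0.10 at 9600 bp, and in the rest of 2L it was 0.19 at 600 bp. The log2 ratios of the plus and the minus tags of the same bin had an r of 0.71. The direction was the same on both strands in 463 of 496 lost bins, but in only 9 of 24 gained bins. Both classes were chosen on tags of both strands together, so neither count is a test. All of these are descriptions over bins of the same 2 libraries, and the EHMT+ and EHMTDD1 levels of neighbouring bins also share their sequence.

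Set beside the same 1 Mb of other arms, 2L was near the upper end for losses. The pericentric 1 Mb of 2R had 419 of 2845 bins lost, or 14.7% (13.4 to 16.1%), and that of 3L had 555 of 2767, or 20.1% (18.6 to 21.6%), against 17.0% (15.6 to 18.4%) on 2L. The interval of 2L overlapped with that of 2R and did not overlap with that of 3L. At 20 to 39 EHMT+ tags the lost shares were close, 25.1% on 2L, 24.1% on 2R and 27.9% on 3L. The centromeric 1 Mb of 3R and X had lower shares, 11.7% (10.6 to 12.8%) and 14.0% (12.7 to 15.4%), and lower densities, with 60.7 and 49.8 tags per kb in EHMTDD1 and 72.7 and 62.8 tags per kb in EHMT+.

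In total tags, 2L differed from 2R and 3L. The ratio of EHMTDD1 to EHMT+ was 0.927 (0.919 to 0.936) on 2L over bins with a tag, 1.03 (1.02 to 1.04) on 2R and 1.02 (1.01 to 1.03) on 3L. It was lower still on 3R, at 0.836 (0.827 to 0.846), and on X, at 0.794 (0.783 to 0.805). The concentration of tags was alike, with the richest 10% of bins holding 36.9% of EHMTDD1 tags and 23.6% of EHMT+ tags on 2L, 34.5% and 23.8% on 2R, and 36.9% and 24.6% on 3L. The 2LHet scaffold, sequence assigned to the heterochromatin of 2L but not joined to the arm, had 14761 tags in EHMTDD1 and 14450 tags in EHMT+, a ratio of 1.02 (0.998 to 1.05). Of its 709 bins with a tag, 127 were lost, or 17.9% (15.2 to 20.9%), a share whose interval includes that of the pericentric 1 Mb, and 42.3% of its bins had no tag in either library.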

How the data were processed

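H3K9me2 ChIP-seq tags from 1 EHMTDD1 and 1 EHMT+ library of larvae of the third instar were used. The authors sequenced single reads of 36 bp, aligned them with the Illumina Analysis Pipeline to BDGP Release 5 allowing 1 mismatch, kept uniquely aligning tags, extended them in their direction to 300 bp and equalized both libraries to 7043913 tags. The deposited values are the first and last positions of these extended tags with their strand. How tags were drawn for the equalization affects which ones remain, and the extension spreads a tag over neighbouring bins.

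Bins of 300 bp were laid along each arm from its first base, and a tag was counted in each bin it overlaps. Ratios used a pseudocount of 1. The ends of the other arms were set by their last tag. No genome or annotation of Release 5 was used. The counting was tested on simulated data. The region, the classes and the rule for named windows, runs and gaps (the 5 most extreme of each kind, and every 100-kb window) were chosen with earlier results of these data known. The change points, the comparison by EHMT+ level or summed tags, the strands, the other parts and the distances between bins were added after the data were seen. Alternatives covered the pseudocount, sparse bins, the counting of a tag, grid and bin size, strand, limits, scaling and the regions compared. A median of 40 tags per bin in EHMTDD1 and 61 in EHMT+ sets how little can be said of 1 bin alone. The tools were Python 3.11.15 with pandas 2.3.3, NumPy 2.4.6 and SciPy 1.17.1, and Matplotlib 3.10.9 for the plots.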

Additional observations from a re-analysis of the deposited data

How the results depend on the processing

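No paired analysis was possible because there is a single library of either genotype. The ratio of pericentric density to that of the preceding 1 Mb, 1.87 in EHMTDD1 and 1.60 in EHMT+, was 1.97 and 1.69 over all bins, 1.26 and 1.23 for the centromeric 500 kb against the 500 kb before it, and 2.09 and 2.23 against 2L without its centromeric 2 Mb. With the median of bins it was 1.38 in EHMTDD1 and 1.61 in EHMT+, so that the order of the genotypes turned round in these last 2 settings. The cause was not tested. The ratio of total tags, 0.928, ran from 0.924 to 0.932 under scaling to the arms, which moved log2 ratios by 0.0047, and on either strand alone. The median log2 ratio of -0.31 was -0.40 by fragment midpoint and from -0.33 to -0.26 otherwise. The 496 lost bins became 267 of 1494 with 600-bp bins, of which there are fewer, and 233 at limits of 3 SD. Kept bins became 586 with 600-bp bins. The 24 gained bins became 10 among bins with at least 20 tags, 10 by fragment midpoint, 4 with limits of 3 SD and 12 away from untagged bins, the last an alternative chosen after seeing the data. In all 12 settings the lost share was above the background of the same setting, by 2.55 to 3.77 times, and the gained share by 1.09 times (fragment midpoint) to 5.46 times. The change point in EHMT+, at 960 kb with 10-kb windows, was at 935 kb with 5-kb windows and at 940 kb with 20-kb windows, and in EHMTDD1 it was at 870, 860 and 860 kb, also added after the data were seen.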
